A study of Mus musculus with 4 samples.

Results

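The expressed long intergenic noncoding RNAs (lincRNAs) of myeloid-derived suppressor cells (MDSCs) are described here. They were chosen as the genes that the annotation of the count table typed as lincRNA, that did not lie on X or Y, that collected at least 200 counts over the 4 libraries together, and that were neither Snhg genes nor Gas5, which host small nucleolar RNAs. This gave 117 members of 5307 lincRNA genes, in a table of 53465 genes. Of the lincRNA genes outside the X and Y chromosomes, 2901 had no count in any library, 1643 had at least 1 but fewer than 200 counts, and 120 reached 200 counts, of which 3 were Snhg genes. Another 643 lincRNA genes lay on X or Y, and 2 of those had 200 counts or more. The total count chose the members, so the levels below are a description. The rule makes no use of the contrast between EGCG and control, though it was set with earlier results of these data known.

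MDSCs are immature cells of the myeloid lineage that build up during tumor growth and dampen T cell responses. They were sorted with Gr-1 magnetic beads from spleens of male BALB/c mice carrying the 4T1 mammary carcinoma cell line. The sorted cells were then kept in culture for 6 h, either in control medium or with 5 μg/mL EGCG (epigallocatechin-3-gallate, a green tea polyphenol). There were 2 libraries per group, control replicates 1 and 2 and EGCG replicates 1 and 2, and the question was how EGCG alters the transcriptome of these cells. The labels place the sacrifice on day 21 after tumor injection, while the study's methods give a shorter interval for cell sorting. All 4 libraries therefore share the strain, the tumor, the sort and the culture, and they differ in the medium alone as far as the labels say. The sources used here do not say whether replicates are separate mice or wells of 1 cell pool, so the p-values measure the spread between these libraries, which may be technical.

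A lincRNA is transcribed, capped and mostly spliced like a messenger RNA but has no established protein product, and its gene lies apart from coding genes. Some lincRNAs work as RNA in the nucleus, where Neat1 is the scaffold of paraspeckles and Malat1 resides in nuclear speckles beside splicing factors. Others bind microRNAs or RNA-binding proteins in the cytoplasm, host a microRNA in their transcript, or act on a neighbouring gene in cis. Many of the annotated genes have no known role, and 102 of the 117 members carried a clone-style symbol. Some of these have another name in RefSeq, such as 1700020I14Rik (Oip5os1), 2900097C17Rik (Norad) and Gm14005 (Morrbid).

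Several members are defined by a short sequence, and the stretches that matter are shown first. Malat1 and the long form of Neat1 do not end in a poly(A) tail added in the usual way: RNase P cuts the transcript, and U-rich stretches pair with a genome-encoded A-rich tract to protect the end. The words are shown in the GENCODE M21 transcripts (GRCm38) with the U-rich and A-rich words in capitals. In Malat1 the window spanned bases 6600 to 6697 of the 6983 base transcript, so the annotated gene continues for 286 bases past it. In Neat1 the window covered bases 20713 to 20771 and ended with the transcript. A U-rich word was a run of at least 4 T, then C or GC, then at least 4 T, and an A-rich word was at least 5 A, then GC, then at least 3 A, both on the strand of the transcript. Malat1 held 4 U-rich words and Neat1 held 2 over their whole length, and each held 1 A-rich word.
Malat1: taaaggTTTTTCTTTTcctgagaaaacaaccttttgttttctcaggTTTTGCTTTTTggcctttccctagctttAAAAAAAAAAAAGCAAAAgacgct
Neat1: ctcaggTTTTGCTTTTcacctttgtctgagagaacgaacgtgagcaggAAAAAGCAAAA
Whether the libraries were made from poly(A) RNA or from ribosomal-RNA-depleted RNA is not given in the sources used here, and that choice bears on how such transcripts are sampled.

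1700020I14Rik is Oip5os1 in RefSeq and is also known as Cyrano, a conserved lincRNA that pairs extensively with miR-7 and leads to its decay. Its site was found at bases 2934 to 2959 of a GENCODE M21 transcript and is written as RNA, with the match to the miR-7 seed in capitals. The sequence of miR-7a-5p is from RefSeq (GRCm38.p6), with bases 2 to 8 in capitals. Another window with the seed match lay at bases 744 to 769, but the upstream pairing was found at the site shown and not at the other.
Oip5os1 site: aacaacaaaaucaccaauGUCUUCCa
miR-7a-5p: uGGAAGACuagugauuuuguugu

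2900097C17Rik is Norad in RefSeq, a cytoplasmic lincRNA that binds Pumilio proteins through repeated UGUANAUA words. A 60 base window of its 4915 base transcript, bases 2420 to 2479, holds 2 such words, shown as DNA in capitals. The whole transcript held 11 of these words on its own strand. Gm7292, also a member, is a near copy of it: the same 60 bases were identical at bases 2394 to 2453 of its 2527 base transcript, which held 9 words. Of the members with a transcript model, 86 held none of these words, and Norad, Gm7292 and Neat1, with 4 words, were the 3 members that held more than 1.
Norad: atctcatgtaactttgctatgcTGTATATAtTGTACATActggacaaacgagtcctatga

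The microRNA hosts are shown by their mature products from RefSeq (GRCm38.p6), with the seed, bases 2 to 8, in capitals. Mir142hg at chr11:87755577-87757270 holds Mir142, a microRNA of blood cells. Mir17hg at chr14:115042879-115046727 holds the cluster from Mir17 to Mir92-1, which is associated with cell growth. 6720427I07Rik at chr13:48532905-48546500 holds let-7a-1, let-7f-1 and let-7d, whose 5p products restrain growth. E130102H24Rik at chr4:101346531-101356735 holds Mir101a. The list groups them by host, so that shared seeds stand next to each other.
miR-142a-5p: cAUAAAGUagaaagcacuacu
miR-142a-3p: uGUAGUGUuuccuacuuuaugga
miR-17-5p: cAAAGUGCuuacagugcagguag
miR-20a-5p: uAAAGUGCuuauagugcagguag
miR-18a-5p: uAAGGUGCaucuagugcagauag
miR-19a-3p: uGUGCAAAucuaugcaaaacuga
miR-19b-3p: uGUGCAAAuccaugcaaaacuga
miR-92a-3p: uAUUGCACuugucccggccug
let-7a-5p: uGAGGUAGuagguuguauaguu
let-7f-5p: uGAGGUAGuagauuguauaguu
let-7d-5p: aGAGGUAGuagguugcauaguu
miR-101a-3p: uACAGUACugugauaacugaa
Mir17hg thus carries 2 products with the seed AAAGUGC and 2 with GUGCAAA, and 6720427I07Rik carries 3 with GAGGUAG. Mature microRNAs were not measured by these libraries, and the microRNA genes Mir142 and Mir17 had 0 counts in all 4. Mir17 overlaps an exon of Mir17hg, and whether shared reads were left out of the counts was not tested.

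The libraries held 17767318 to 18390385 counts each. Levels are given as CPM, the usual count normalized to sequencing depth, with library sizes scaled by the trimmed mean of M values (TMM). All 10 neutrophil markers tested were present, with a summed level of 59196 to 79411 CPM per library, the groups overlapping. For 7 monocyte markers the sum was 2647 to 2804 CPM in control and 2392 to 2533 CPM with EGCG. For 7 splenic macrophage markers it was 668 to 675 CPM in control and 534 to 611 CPM with EGCG. Endothelial markers summed to 114 to 126 CPM in control and 93.9 to 98.6 CPM with EGCG, mostly Pecam1, and the median log2 fold change of the 4 was -0.81. Platelet markers summed to 36.3 to 39.3 CPM in control and 32.0 to 32.4 CPM with EGCG. T cell markers were at 93.1 to 106 CPM in control and 108 to 109 CPM with EGCG, and the 4T1 markers, with Krt14 at 0, at 3.86 to 4.66 and 6.51 to 6.61 CPM. In each of these 6 lists the sums of the groups did not overlap. They did for B cell markers (349 to 397 CPM), NK cell markers (4.76 to 6.78 CPM) and erythroid markers (154 to 206 CPM). No marker in these lists passed the test of EGCG against control, and the part of other cells in the results below was not tested. In bulk RNA, fewer cells of a type and less RNA per cell cannot be told apart.

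The members took a small share of the RNA, and 2 of them took much of that share. Together the members held 0.364% and 0.312% of the counts of the control libraries and 0.323% and 0.274% of those of the EGCG libraries, ranges that overlap. Neat1 and Malat1 alone made up 41.3% and 36.0% of the members' counts in control and 36.8% and 30.8% with EGCG. Without both genes the members held 0.214% and 0.200% of the counts in control and 0.204% and 0.190% with EGCG. The median member had a total of 510 counts, 34 members had at least 1000, 8 had at least 5000, and 42 had fewer than 400. The lowest count of a member in any library was 37, so all 117 passed the filter on low counts and were tested. Just inside the limit lay Epb41l4aos with 202 counts, Gm26773 with 205 and 9330136K24Rik with 210, and just outside lay Gm13431 with 195, Gm36660 with 190 and Gm10814 with 186.

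**Figure D1:**
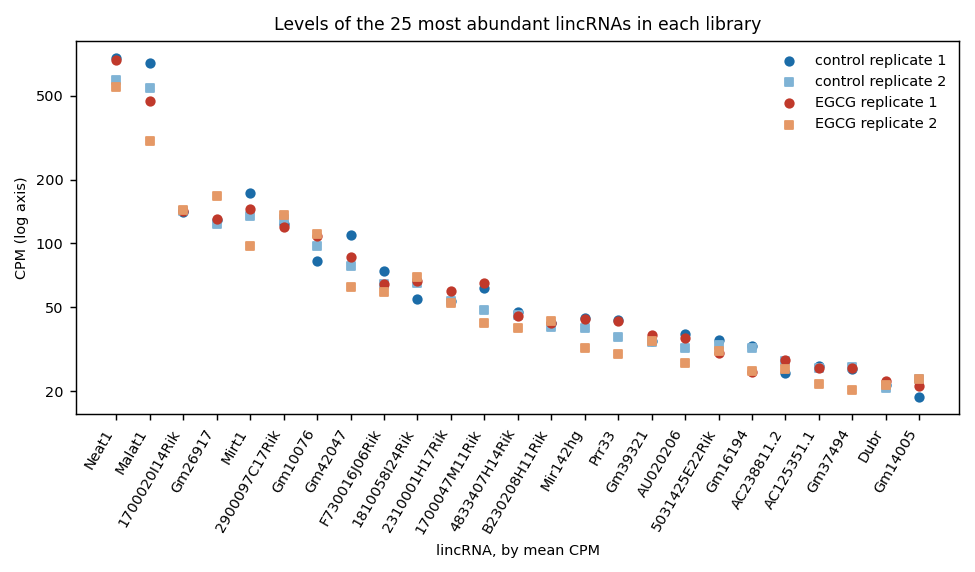
Level of the 25 most abundant lincRNAs (horizontal axis, ordered by mean CPM) in each of the 4 libraries (vertical axis, CPM on a log axis; blue, control; red and orange, EGCG; circles, replicate 1; squares, replicate 2). Neat1 and Malat1 stand above the others, and the Malat1 points of EGCG replicates 1 and 2, at 471 and 305 CPM, lie below both control points.

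Per kilobase of exon the order was another one. Gm10076, a short gene of 384 bases, led with a mean of 260 CPM per kb, followed by Mir142hg with 149 CPM per kb over 269 exonic bases, Malat1 with 72.5 CPM per kb and Gm26917 with 41.3 CPM per kb. Neat1, with 20771 exonic bases, was 6 in this order with 31.7 CPM per kb, and Norad was 8 with 25.9 CPM per kb. Gm10076 and Gm26917 resemble other genes, as described with their values below. Exonic lengths of the 116 members with a GENCODE M21 model ranged from 269 to 20771 bases with a median of 2480.5, and 22 members had a single exon block.

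The type lincRNA did not hold for every member in a later annotation. RefSeq typed 73 of the members as long noncoding RNA, 5 as protein coding, 1 as a pseudogene and 1 as a transcribed pseudogene, and 37 were not matched by symbol. The 5 coding ones were 1810058I24Rik, Gm37494, Tmem250-ps, Gm46430 and Gm2511, of which 1810058I24Rik is known to encode the mitochondrial micropeptide Stmp1. Exons of 44 members overlapped exons of another gene. Because counting ignored strand, reads of such a pair on opposite strands cannot be told apart, and 22 members shared at least 20% of their 31 base words with another gene.

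EGCG against control was tested with edgeR's quasi-likelihood test on the whole table, with Benjamini-Hochberg adjustment over the 14682 genes tested, as log2 fold change of EGCG over control. None of the 117 members passed an adjusted p of 0.05, where 22 genes of the whole table did, 0.15% of those tested. At an unadjusted p under 0.05 there were 12 members, which is 10.3% of the members beside 12.2% of all genes tested. Of these, 10 were lower with EGCG, beside 7.02% of all genes, and 2 were higher, beside 5.22%. DESeq2 also gave 0 members past an adjusted p of 0.05, beside 0.436% of all genes, and 7 at an unadjusted p under 0.05, beside 6.28%. The 2 groups did not overlap in CPM for 21 members that were lower and 17 that were higher with EGCG, together 32.5% of the members beside 42.7% of all genes. The median log2 fold change was -0.04 over the members and 0.0031 over all genes, with 62 members lower, 53.0% of them beside 49.4% of all genes, and 55 higher. Within 1.25-fold of no change lay 101 members, 86.3% beside 83.2% of all genes. Past 1.5-fold lay 4 members, 3.4% beside 5.8% of all genes, all 4 of them lower with EGCG, namely Malat1, A630001O12Rik, Gm7160 and Gm34983. An exact two-sided permutation test of 2 libraries against 2 cannot go below p = 0.333 and was not used for single genes.

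**Figure D2:**
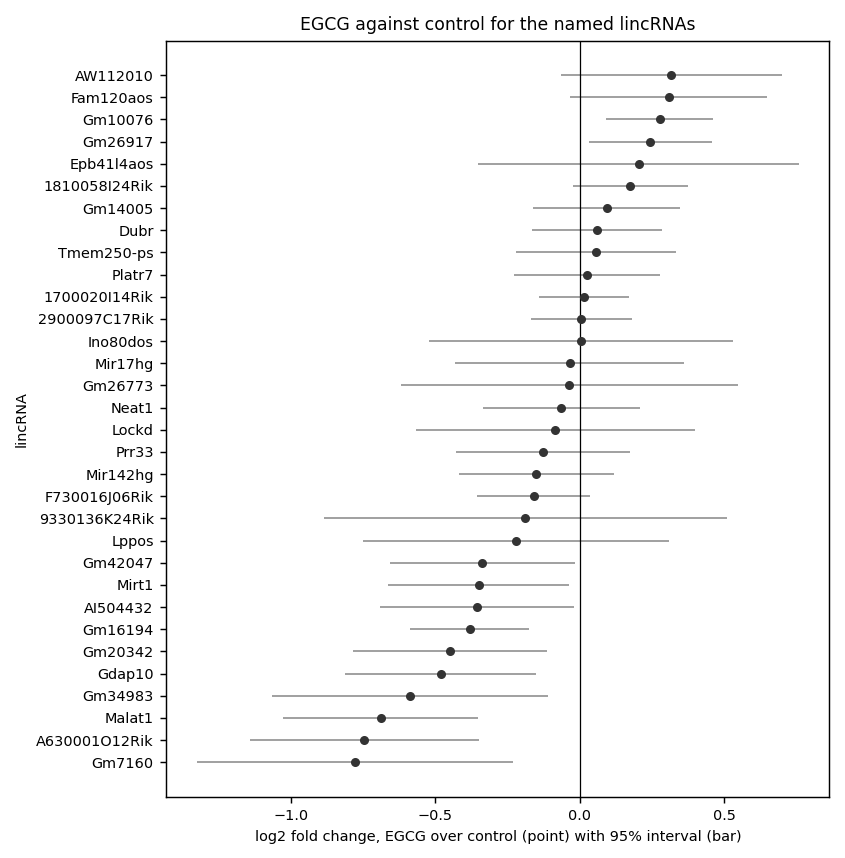
Log2 fold change of EGCG over control (horizontal axis) for the 32 named lincRNAs (vertical axis, ordered by fold change); points are edgeR estimates from 2 libraries per group and bars their 95% intervals. The intervals of 10 genes lie wholly below 0 and those of 2, Gm10076 and Gm26917, wholly above, none of them with an adjusted p under 0.05.

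Malat1, the speckle RNA, had the smallest p of the members. It lies at chr19:5795690-5802672 on the minus strand (GRCm38), as 1 exon block of 6983 bases. Its level was 709 and 540 CPM in control and 471 and 305 CPM with EGCG, from counts of 12953, 9658, 8531 and 5450. Both EGCG libraries lay below both control libraries, and EGCG replicate 2 lay lowest. The means were 625 ± 119 CPM in control and 388 ± 117 CPM with EGCG (SD, n = 2 each), so the difference between the means was about 2 times the SD within a group. The log2 fold change was -0.69 (SE 0.16, 95% interval -1.03 to -0.35), with an adjusted p of 0.103 in edgeR's quasi-likelihood test. This call depended on the fit. Malat1 passed with library size as the only scaling (adjusted p = 0.0101), with the replicate number as a block (adjusted p = 0.00467), and in edgeR without control replicate 2 (9.9e-06), without EGCG replicate 1 (3.74e-18) or without EGCG replicate 2 (0.0103). It did not pass without control replicate 1 (0.0566), with the robust form of edgeR (0.527) or with DESeq2 (0.545), and over the alternatives that kept all libraries the adjusted p ran from 0.00467 to 0.659. Its log2 fold change stayed between -1.03 and -0.41 in all of them. The genes annotated inside Malat1, Gm37376 and Gm27694, were at 0 counts in all libraries. Their exons overlap those of Malat1, and whether reads shared with Malat1 were left out of the counts was not tested. These zeros therefore do not show that the genes are silent.

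Neat1, the paraspeckle scaffold, lies next to Malat1 at chr19:5824708-5845478. Its level was 755 and 590 CPM in control and 735 and 551 CPM with EGCG. Replicate 1 lay above replicate 2 in both groups, and the groups overlapped almost fully. The log2 fold change was -0.06 (SE 0.13, 95% interval -0.34 to 0.21; adjusted p = 0.884 in edgeR's quasi-likelihood test), and its sign turned to 0.11 under a correction for exonic length and to 0.13 without control replicate 1 or without EGCG replicate 2. Malat1 and Neat1 moved together between the replicates of a group, so their ratio was steadier than either level. The counts of Malat1 per count of Neat1 were 0.939 and 0.916 in control and 0.640 and 0.554 with EGCG. The ratio was lower in both EGCG libraries, with a mean of 0.928 ± 0.016 in control and 0.597 ± 0.061 with EGCG (SD, n = 2 each). It was looked at after the levels were seen and has no test.

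The genes of the proteins that share these nuclear bodies did not pass the test, which compared their RNA and not the proteins. Of 14 paraspeckle proteins none had an adjusted p under 0.05 in edgeR's quasi-likelihood test, beside 0.15% of all genes, and their median log2 fold change was -0.03, with 11 lower and 3 higher. The list ran from Smarca4, a chromatin remodeler (-0.21, adjusted p = 0.299), to Hnrnpk, an RNA-binding protein (0.12, adjusted p = 0.568). Of 13 nuclear speckle proteins and SR splicing factors none passed, with a median of -0.03, 9 lower and 4 higher. At its ends were Srrm2, a core speckle protein (-0.40, adjusted p = 0.121), and Srsf3, an SR splicing factor (0.14, adjusted p = 0.514). Of 16 tested members of the nuclear RNA exosome and its adaptors, which degrade many noncoding transcripts, none passed either, with 9 lower and 7 higher. They ran from Zfc3h1, of the poly(A) exosome connection (-0.19, adjusted p = 0.443), to Exosc9, an exosome subunit (0.21, adjusted p = 0.554).

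Mirt1 and Gm42047 lay near Malat1 in their pattern across the libraries, and their groups overlapped. Mirt1 lies at chr19:53443230-53464796, and its level was 173 and 135 CPM in control and 145 and 96.9 CPM with EGCG. Gm42047, of no known role, was at 110 and 77.8 CPM in control and at 86.2 and 62.1 CPM with EGCG. EGCG replicate 2 was the lowest library and control replicate 1 the highest for both, and EGCG replicate 1 lay above control replicate 2. The log2 fold changes were -0.35 (SE 0.15, adjusted p = 0.363) for Mirt1 and -0.34 (SE 0.15, adjusted p = 0.388) for Gm42047 in edgeR's quasi-likelihood test. Both values hung on single libraries: without EGCG replicate 1 Mirt1 was at -0.67 and Gm42047 at -0.59, without control replicate 2 they were at -0.51 and -0.56, and both passed in these fits. Without EGCG replicate 2 they were at -0.088 and -0.12, and without control replicate 1 at -0.16 and -0.064. Per count of Neat1, Mirt1 stood at 0.228 and 0.229 in control and 0.197 and 0.176 with EGCG, and Gm42047 at 0.145 and 0.132 in control and 0.117 and 0.113 with EGCG. In these ratios, chosen after the levels were seen and not tested, the groups did not overlap. The ratio of 1700047M11Rik, another member, to Neat1 was looked at in the same way, and its groups overlapped, with 0.0813 and 0.0823 in control and 0.0879 and 0.0763 with EGCG. Mirt1 overlaps 4833407H14Rik, a second lincRNA gene of the same locus (-0.12, SE 0.09, adjusted p = 0.640), and 72.3% of the 31 base words of Gm42047 were shared with 1 or more of 17 other genes, so both values carry the uncertainty of shared reads.

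**Figure D3:**
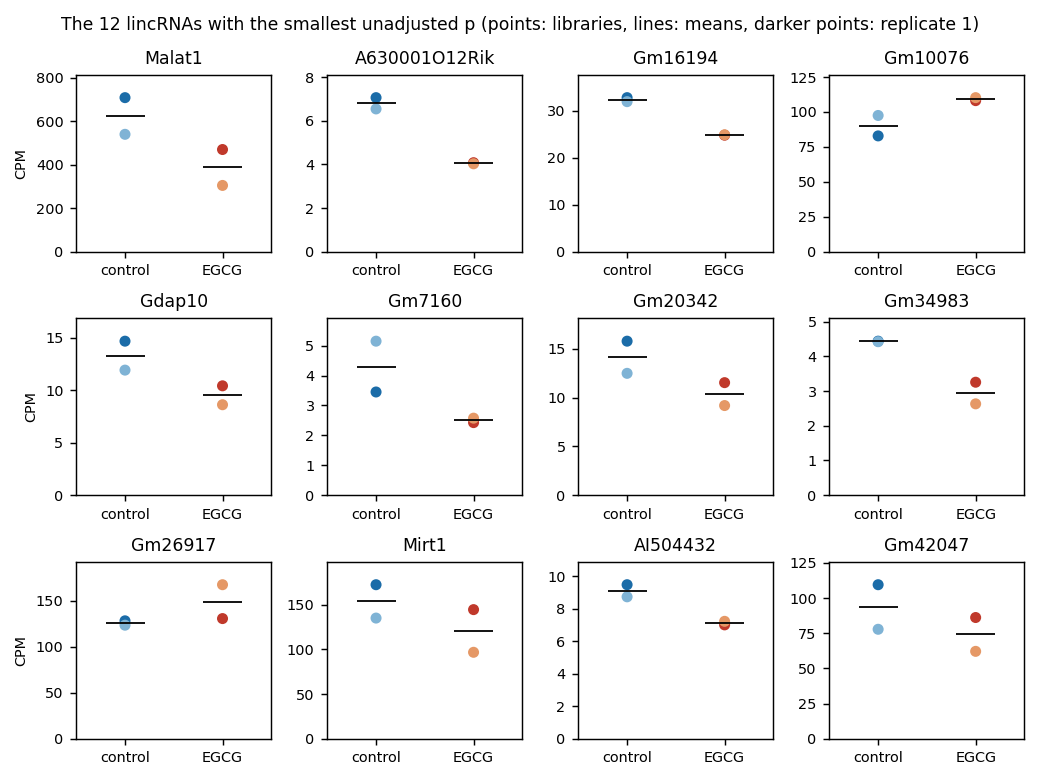
Level (vertical axis, CPM from 0) of the 12 lincRNAs with the smallest unadjusted p in each library by group (horizontal axis; points, libraries, with replicate 1 in the darker shade; lines, means of 2). The groups overlap for Mirt1 and Gm42047 and not for the other 10 genes, and Gm10076 and Gm26917 are the 2 with the higher mean in EGCG.

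A630001O12Rik had the tightest separation of a scarce member. It lies at chr8:126839233-126851473, a lincRNA of no known role 79194 bases from Tomm20. Its gene is within the span of Gm31718, another member on the opposite strand (log2 fold change -0.12, SE 0.15), without overlap of exons. Counting ignored strand, and the part of unspliced Gm31718 reads in the value of A630001O12Rik was not tested. The counts of A630001O12Rik were 129 and 117 in control and 74 and 72 with EGCG, or 7.06, 6.55, 4.08 and 4.03 CPM. The EGCG libraries lay close together and below both control libraries. The log2 fold change was -0.75 (SE 0.19, 95% interval -1.14 to -0.35; adjusted p = 0.133 in edgeR's quasi-likelihood test). Tomm20, a subunit of the mitochondrial import receptor, had a log2 fold change of 0.04 (adjusted p = 0.926).

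Gm16194 also had both EGCG libraries below both control libraries, at a higher level. Its counts were 598 and 570 in control and 449 and 444 with EGCG. Both pairs were tight and they did not overlap, with 32.7 and 31.9 CPM in control and 24.8 and 24.9 CPM with EGCG. The log2 fold change was -0.38 (SE 0.10, 95% interval -0.59 to -0.17; adjusted p = 0.133 in edgeR's quasi-likelihood test). No gene model of that symbol was found in GENCODE M21, so its position, length and overlaps were not analysed here.

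Another 5 members with an unadjusted p under 0.05 were lower with EGCG, and their groups did not overlap. Gdap10, whose gene overlaps the coding gene Nampt on the same strand, was at 14.7 and 11.9 CPM in control and 10.4 and 8.62 CPM with EGCG (-0.48, SE 0.15, adjusted p = 0.230). Gm20342 was at 15.8 and 12.5 CPM in control and 11.5 and 9.18 CPM with EGCG (-0.45, SE 0.16, adjusted p = 0.275). For these 2 control replicate 1 was the highest and EGCG replicate 2 the lowest library, and the gap between the groups was smaller than that between the replicates. Gm7160 had 63 and 92 counts in control and 44 and 46 with EGCG (-0.78, SE 0.26, adjusted p = 0.242). Gm34983 had 81 and 79 counts in control and 59 and 47 with EGCG (-0.59, SE 0.22, adjusted p = 0.320). AI504432 had 173 and 156 counts in control and 127 and 129 with EGCG (-0.36, SE 0.16, adjusted p = 0.386). The adjusted p-values are those of edgeR's quasi-likelihood test, and the counts of Gm7160 and Gm34983 are near the lower limit of the members.

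The coding genes beside these members had values of their own. Gm7160 starts 124 bases from Zcchc2 on the opposite strand, and Zcchc2 had a log2 fold change of -0.34 (SE 0.08, adjusted p = 0.106 in edgeR's quasi-likelihood test). Beside Gm20342, at 2451 bases, lies Ino80d, a subunit of the INO80 chromatin remodeler (-0.18, SE 0.08, adjusted p = 0.378). Gm20342 also lies within the span of Ino80dos, a noncoding member on the same strand (0.0041, SE 0.24), without overlap of exons. AI504432 lies 1434 bases from Kcna3, a potassium channel of leukocytes (-0.55, SE 0.23, adjusted p = 0.364). The 3 coding neighbours Zcchc2, Ino80d and Kcna3 had the sign of the lincRNA beside them. Nampt, which makes a precursor of NAD and overlaps Gdap10, was at 0.0031 (adjusted p = 0.997).

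Over all members with a tested coding neighbour, 98 pairs, no neighbour passed the test and 42 pairs had log2 fold changes of the same sign. The correlation of the log2 fold changes across the pairs was 0.07 (Pearson) and 0.04 (Spearman), given as a description since all pairs share the 4 libraries. In the 17 pairs whose gene bodies overlapped it was 0.13 and 0.15, with 8 of the same sign. In the 33 pairs that were 1 to 5000 bases apart it was 0.29 and 0.25, with 19 of the same sign. For the 48 pairs farther apart it was -0.04 and -0.09, with 15 of the same sign.

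Gm10076 and Gm26917 were the 2 members higher with EGCG at an unadjusted p under 0.05, and neither is a plain lincRNA. Gm10076 is a pseudogene in RefSeq, and 82.2% of its 31 base words were shared with Rpl41, a protein of the large ribosomal subunit. Its level was 82.9 and 97.5 CPM in control and 108 and 110 CPM with EGCG, groups that did not overlap (log2 fold change 0.28, SE 0.09, 95% interval 0.09 to 0.46, adjusted p = 0.228 in edgeR's quasi-likelihood test). Rpl41 itself was at 289 and 345 CPM in control and 357 and 324 CPM with EGCG (0.10, SE 0.09, adjusted p = 0.700), so its groups overlapped. How many reads of Gm10076 belong to Rpl41 was not tested.

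Gm26917, at chr17:39843013-39846341, has a GC content of 69.1% and is known to resemble ribosomal RNA. It was at 128 and 124 CPM in control and 131 and 168 CPM with EGCG, and EGCG replicate 2 alone stood well above the rest (0.24, SE 0.10, 95% interval 0.03 to 0.46, adjusted p = 0.349 in edgeR's quasi-likelihood test). Ribosomal RNA genes had the same sign. The ribosomal RNA gene CT010467.1 on the same chromosome was at 237 and 194 CPM in control and 290 and 320 CPM with EGCG (0.50, SE 0.09, adjusted p = 0.0546), mt-Rnr1 was at 0.29 (adjusted p = 0.230) and mt-Rnr2 at 0.42 (adjusted p = 0.133). The part of ribosomal RNA left in the libraries in the value of Gm26917 was not tested. The related lincRNA genes Gm42418 and AY036118 had 0 counts in all libraries.

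The abundant cytoplasmic lincRNAs Oip5os1 and Norad were near no change. Oip5os1, the miR-7 binding RNA shown above, had 2566 and 2533 counts in control and 2568 and 2564 with EGCG. Its CPM values, 141, 142, 142 and 144, overlapped between the groups and lay close together. The log2 fold change was 0.01 (SE 0.07, 95% interval -0.14 to 0.17; adjusted p = 0.961 in edgeR's quasi-likelihood test).

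Norad, the Pumilio binding RNA, was at 124 and 130 CPM in control and 119 and 136 CPM with EGCG. The highest and the lowest library were both EGCG libraries, and the log2 fold change was 0.01 (SE 0.08, 95% interval -0.17 to 0.18; adjusted p = 0.985 in edgeR's quasi-likelihood test). Its near copy Gm7292 had 175 and 211 counts in control and 193 and 223 with EGCG (0.11, SE 0.15, adjusted p = 0.822), again with replicate 2 above replicate 1 in both groups. Of the 31 base words of Norad 43.9% were shared with Gm7292, and of those of Gm7292 85.9% were shared with Norad. Reads of these stretches may be split between the genes or lost from both, which was not tested.

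Members with a role in myeloid cells were near no change or uncertain. Gm14005 is Morrbid in RefSeq, a lincRNA that represses the proapoptotic gene Bcl2l11 in neutrophils, eosinophils and monocytes and so lengthens their life. It was at 18.7 and 22.7 CPM in control and 21.2 and 23.0 CPM with EGCG, with control replicate 1 the lowest and the other 3 libraries together (0.09, SE 0.12, 95% interval -0.16 to 0.35, adjusted p = 0.809 in edgeR's quasi-likelihood test). Bcl2l11, 15772 bases away, was at 263 and 292 CPM in control and 257 and 295 CPM with EGCG (-0.01, SE 0.09, adjusted p = 0.978), so its groups overlapped too.

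AW112010, an interferon- and inflammation-induced transcript of immune cells from which a peptide is translated, had 105 and 135 counts in control and 142 and 156 with EGCG. Both EGCG libraries were higher, control replicate 1 was the lowest, and the log2 fold change was 0.32 (SE 0.18, 95% interval -0.07 to 0.70; adjusted p = 0.514 in edgeR's quasi-likelihood test). F730016J06Rik, near the ficolin gene Fcnb, was at 73.8 and 64.0 CPM in control and 64.4 and 59.0 CPM with EGCG (-0.16, SE 0.09, adjusted p = 0.521), while Fcnb was at 0.02 (adjusted p = 0.946). The groups overlapped for F730016J06Rik, by a narrow margin.

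The groups overlapped for the 4 microRNA hosts shown above. Gm26532, which shares 2 exonic bases with Mir24-2, and Dubr, which lies opposite Mir6363, were not counted as hosts. Mir142hg was at 44.4 and 39.9 CPM in control and 43.8 and 32.1 CPM with EGCG (-0.15, SE 0.13, 95% interval -0.42 to 0.12, adjusted p = 0.675 in edgeR's quasi-likelihood test). The low value was that of EGCG replicate 2, and without it the log2 fold change was 0.06. Mir17hg had 112 and 101 counts in control and 95 and 112 with EGCG (-0.03, SE 0.18, adjusted p = 0.964). The other hosts are given because of the microRNA they hold: 6720427I07Rik, the let-7 host, was at 3.67 and 3.69 CPM in control and 2.92 and 3.86 CPM with EGCG (-0.12, SE 0.23). E130102H24Rik was at 4.49 and 4.70 CPM in control and 4.96 and 3.19 CPM with EGCG (-0.17, SE 0.23). Dubr, a lincRNA of muscle cell differentiation and a member with a name of its own, ranged from 20.6 to 22.4 CPM over the 4 libraries (0.06, SE 0.11). Of 9 genes of microRNA processing none passed the test, with a median of -0.16 and 8 lower, from the Argonaute genes Ago3 (-0.49, adjusted p = 0.286) to Ago4 (0.09, adjusted p = 0.758).

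The remaining members with a name of their own had wide intervals or small differences. 1810058I24Rik, the Stmp1 gene, was at 54.7 and 65.2 CPM in control and 66.2 and 69.1 CPM with EGCG (0.17, SE 0.09, 95% interval -0.03 to 0.37, adjusted p = 0.485 in edgeR's quasi-likelihood test). Fam120aos, head to head with Fam120a, had 157 and 211 counts in control and 218 and 236 with EGCG (0.31, SE 0.16, adjusted p = 0.469). In both genes the EGCG libraries were higher, and control replicate 1 was far below control replicate 2. Fam120a, 270 bases away, had the opposite sign (-0.19, SE 0.08, adjusted p = 0.394). Prr33, which overlaps the leukocyte gene Lsp1, was at 43.4 and 36.2 CPM in control and 42.9 and 30.0 CPM with EGCG, overlapping groups (-0.13, SE 0.14, adjusted p = 0.767).

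Platr7, Tmem250-ps, Lockd, Lppos, Ino80dos and Epb41l4aos lay between -0.22 and 0.20, and all 6 had overlapping groups. Lockd, downstream of the cell cycle inhibitor gene Cdkn1b, had 75 and 74 counts in control and 82 and 58 with EGCG (-0.09, SE 0.22). The interval of Epb41l4aos, the scarcest member with 202 counts, ran from -0.35 to 0.76. A difference within these bounds could not be told from none at this depth. The median SE of the log2 fold change was 0.12 for the 34 members with at least 1000 counts and 0.23 for the 42 members with fewer than 400 counts.

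Some abundant members differed between the replicates of a group as much as between the groups. The difference of replicate 1 and replicate 2 in log2(CPM + 0.5) in control and the same difference in EGCG had a Pearson correlation of 0.39 over the 117 members and 0.80 over the 20 most abundant, given as a description over genes that share the 4 libraries, beside 0.03 over all genes tested. Replicate 1 lay above replicate 2 in both groups for 47 members, 40.2% beside 25% of all genes tested. EGCG replicate 2 was the lowest library for 50 members, 42.7% of them, beside 24.8% of all genes tested, and control replicate 1 was the highest for 41, 35.0%, beside 29.1% of all genes. Without EGCG replicate 2 the median log2 fold change of the members was 0.04 instead of -0.04. What sets EGCG replicate 2 apart in these genes was not tested.

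**Figure D4:**
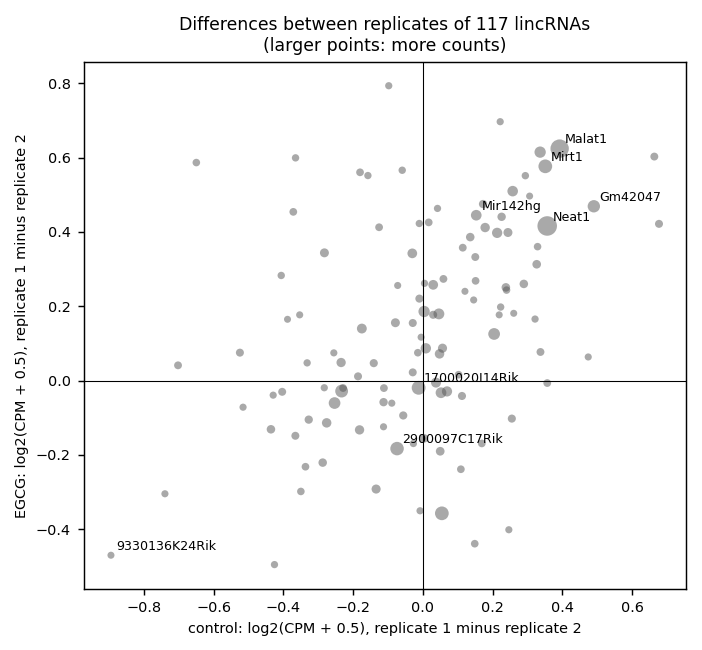
Difference between replicate 1 and replicate 2 in log2(CPM + 0.5) for each of the 117 lincRNAs, in control (horizontal axis) and with EGCG (vertical axis); larger points have more counts. Malat1, Neat1, Mirt1 and Gm42047 lie at the upper right, with replicate 1 higher in both groups, and the Pearson correlation over all points was 0.39.

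Longer members had lower fold changes. Spearman's correlation of the log2 fold change with exonic length was -0.29 over 116 members, and it was -0.29 over 14666 tested genes as well, both given as descriptions across genes that share the 4 libraries. For the 40 members of at least 3000 bases the median was -0.12, and 27 were lower, while the median of all tested genes of that length was -0.03. Members of at least 1000 but under 3000 bases had a median of 0.02, beside 0.06 for all genes of that length, and the 22 members under 1000 bases had -0.01, beside 0.11. With a correction for exonic length in each library, Malat1 had a log2 fold change of -0.64 (adjusted p = 0.117 in edgeR's quasi-likelihood test), and the part of RNA quality in the length relation was not tested.

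**Figure D5:**
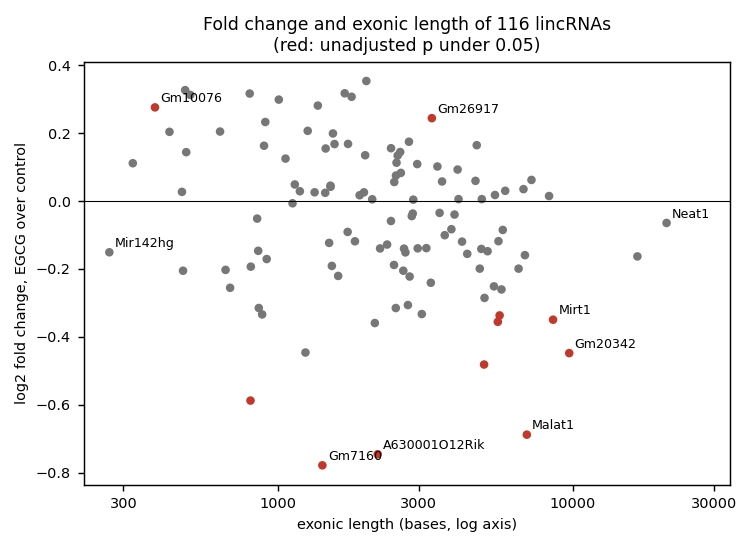
Log2 fold change of EGCG over control (vertical axis) against exonic length in bases (horizontal axis, log axis) for the 116 lincRNAs with a gene model; red points have an unadjusted p under 0.05. The red points of long genes, such as Malat1 and Gm20342, lie below 0, Gm26917 above, and Spearman's correlation was -0.29.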

How the data were processed

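RNA of 2 control and 2 EGCG libraries was sequenced. According to the submitters' processing notes and the study's methods, the authors aligned reads to GRCm38 with STAR 2.6.0c and counted them with featureCounts 1.6.2 and Ensembl release 91; the deposited values are raw counts per gene without regard to strand, not normalized. The whole table was fitted here with edgeR 4.0.16 (R 4.3.3): filterByExpr with a minimum count of 10, TMM, and the quasi-likelihood test with Benjamini-Hochberg adjustment at 0.05 over 14682 genes. Standard errors are the log2 fold change over the root of F. In simulated counts (dispersion 0.005; real common dispersion 0.00452) the fit called 60% of 50 genes raised 1.5-fold, 96% of 50 raised 2-fold, 77.6% of 49 lowered to 0.5 times and 0.0636% of 14142 unchanged genes. Gene models and 31 base words came from GENCODE M21. Members named were the 12 with the smallest p, the 10 most abundant, those with a name of their own or on a list of known lincRNAs, and the 3 at the limit of 200 counts; microRNA hosts and RefSeq coding genes were added. Members and lists were chosen with earlier results of these data known. Alternatives were other scalings, filters, tests (DESeq2 1.42.0), a replicate block, a length correction, other limits and leaving out each library.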

Additional observations from a re-analysis of the deposited data

How the results depend on the processing

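Of the 32 named members, 27 kept their direction in each alternative run for them, out of 11 other than leaving out a library. With each library left out as well, 18 kept it, and the 12 with the smallest p did so in all fits run for them. The length correction and the fit without ribosomal-RNA-like genes each held 116 of the 117 members. Gm16194, with no gene model, had no length correction. The count of members past the threshold, 0, became 1 (Malat1) with library size only, and 0 to 4 with 1 library left out. It was 4 without control replicate 2 (Malat1, Mirt1, Gm42047, Gm10076) and without EGCG replicate 1 (Malat1, Mirt1, Gm42047, Gm26917), and 1 without EGCG replicate 2 (Malat1). In such fits the lone library is assumed to vary like the other group, so the spread of Malat1 and Mirt1 between replicates enters in part only. The median over the members ran from -0.11 to 0.044 with 1 library left out. Members lower with EGCG were 99 of 185 at a limit of 100 counts and 31 of 60 at 500. Over the whole table the 22 genes became 11 with upper-quartile scaling, 151 with library size only, 0 without a filter, 10 at a minimum count of 50, 63 with robust edgeR, 8 with the length correction, 64 with DESeq2, and 77 to 354 with 1 library left out. The causes were not tested.

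With the replicate block 1 member passed, Malat1 (-0.71, adjusted p = 0.00467). The labels number the replicates in both groups, but nothing says that a number marks a shared mouse or day, and there are only 2 pairs, so the pairing is not established.

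Signs turned in members near no change or with wide intervals. With library size only, Oip5os1 (1700020I14Rik) was at -0.020, Norad (2900097C17Rik) at -0.029, Ino80dos at -0.029 and Platr7 at -0.0082; with the length correction, Neat1 was at 0.11, Ino80dos at -0.022 and Platr7 at -0.025; at a minimum count of 50, Ino80dos was at -0.00032. With 1 library left out the ranges were -0.088 to 0.097 for Norad, -0.62 to 0.43 for 9330136K24Rik, -0.0057 to 0.45 for Epb41l4aos, -0.038 to 0.24 for Gm14005, -0.36 to 0.23 for Gm26773, -0.18 to 0.22 for Ino80dos, -0.34 to 0.13 for Lockd, -0.39 to 0.058 for Mir142hg, -0.17 to 0.092 for Mir17hg, -0.29 to 0.13 for Neat1, -0.085 to 0.15 for Platr7, -0.41 to 0.11 for Prr33 and -0.10 to 0.20 for Tmem250-ps. With 1 library left out, other members kept their sign but moved by over 1.5 times: -1.03 to -0.41 for Malat1, -0.67 to -0.088 for Mirt1, -0.59 to -0.064 for Gm42047, 0.055 to 0.41 for Gm26917, 0.14 to 0.53 for AW112010, 0.10 to 0.55 for Fam120aos, 0.057 to 0.31 for 1810058I24Rik, -0.26 to -0.048 for F730016J06Rik, -0.47 to -0.0028 for Lppos, -0.62 to -0.26 for Gm20342, -1.04 to -0.46 for Gm7160, -0.62 to -0.32 for Gdap10, 0.17 to 0.40 for Gm10076, 0.025 to 0.097 for Dubr and 0.0063 to 0.027 for Oip5os1.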
